A study of Bos taurus with 8 samples.

Results

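The genes that write, copy, erase and protect DNA methylation were followed in cattle embryos recovered in vivo at day 6, compared between the Holstein and Jersey breeds. Members were chosen by gene name among the probes of the EmbryoGENE bovine array, older synonyms included: 15 probes of 43794 on the array, for 9 of the 10 genes listed, among 15213 named genes in all. The annotation used here gives no probe the name TET1, so TET1 is not analysed here. Background was set for each array and dye from the negative control spots, 2 SD over their mean. Probes above it on at least 4 of the 8 arrays, for Holstein or for Jersey, were kept, which held for 14 of the 15 probes and for 32139 probes in all. The probe left out is 1 of the 2 for DNMT1.

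Each of the 8 two-colour arrays carried RNA of both breeds. Cy5 marked the Holstein RNA on 4 arrays and the Jersey RNA on the other 4, with 4 arrays on each of 2 slides. Holstein embryos are labelled as having good cryotolerance and Jersey embryos as performing poorly after freezing, and which transcripts differ between them is the question of the design. Source labels read blast and in vivo for both breeds. In donors of both breeds follicles over 8 mm were first aspirated, superovulation used FSH (400 mg in all) with 500 µg doses of a prostaglandin F2α analogue at its end, and insemination used pooled semen. Embryos were collected by flushing the uterus, and the RNA of both was amplified in 2 rounds before labelling. How many embryos or donors form a replicate is not given in the sources used here, so p-values measure the spread between these samples, which may be technical. The 2 arrays of a dye-swap pair were averaged into 4 pair values of log2(Holstein / Jersey), each pair being 1 replicate. In such bulk samples, fewer cells of a type and less RNA per cell cannot be told apart.

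In mammals, DNMT1 copies methylation onto the new DNA strand after replication, guided there by UHRF1, whereas DNMT3A and DNMT3B set methylation on unmethylated DNA. TET enzymes oxidise methylcytosine and so begin its removal. Most methylation inherited from sperm and egg is lost in the early embryo and later set anew. In the mouse, DPPA3 (Stella) shields the maternal genome from TET3, and the zinc finger protein ZFP57 recruits the corepressor TRIM28 to imprinted regions so that these keep their marks.

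Markers of the labelled tissue were present. All 8 trophectoderm and all 7 inner cell mass markers with a probe were above background on at least 4 arrays in both breeds. Of markers of other cells, CD3E and PTPRC (leukocyte), HBA and ALAS2 (erythrocyte) were also above background on 7 or 8 arrays of each breed, whereas the leukocyte genes CD79A and ITGAM were above it on no array. Over the 8 arrays the log2 summed level of the 6 leukocyte markers ran from 10.04 to 10.81 in Holstein and from 10.11 to 11.37 in Jersey. The 5 erythrocyte markers were all above background on at least 4 arrays in both breeds. Their sum ran from 10.03 to 10.43 in Holstein and from 10.67 to 11.14 in Jersey, but the markers split by breed. Mean log2(Holstein / Jersey) was -0.62 for ALAS2, -0.60 for HBA and -1.0 for HBB, against 0.04 for SLC4A1 and 0.18 for AHSP. ALAS2 was at 0.44 in pair 2, and HBB at -0.02 and 0.05 in pairs 3 and 4. Of 9 oocyte markers 5 were above background on at least 4 Holstein arrays and 4 on at least 4 Jersey arrays, FIGLA and BMP15 among them, and NOBOX and ZAR1 on none. Their sum ran from 10.23 to 10.59 in Holstein and from 10.34 to 10.58 in Jersey. Of 8 cumulus and granulosa markers 3 in Holstein and 5 in Jersey were above it on at least 4 arrays, and their sum ran from 10.45 to 10.75 and from 10.14 to 10.58. The steroid enzyme CYP19A1 (0.28 to 0.79) and the activin subunit INHBA (0.04 to 1.55) were on the Holstein side in each pair. HAS2 (-0.16 to -0.05), TNFAIP6 (-0.46 to -0.03) and FOXL2 (-0.15 to -0.05, not kept) were on the Jersey side in each. PTX3, FSHR and AMH had both signs, and the median of the list was -0.03. No marker had a limma adjusted p under 0.05 on pair means, but 0 of 32139 probes did, so this says nothing of these cells. With the pair as a random block over 8 arrays, the lowest limma adjusted p of the markers named so far were near 0.06. They were 0.0561 for HBA, 0.0611 for INHBA and 0.0652 for CYP19A1. The primitive endoderm genes PDGFRA (limma adjusted p = 0.0112) and GATA4 (0.0332) were lower, both higher in Holstein in each pair. In that list HNF4A had an adjusted p of 0.303 and SOX17 of 0.958, and FOXA2 was not kept. The lowest of the sperm markers was 0.0568 (ODF2), and of the uterine ones 0.315 (OVGP1). In this fit 4.47% of named genes passed. The part of these cells in the results was not tested. The X inactivation RNA XIST, made in female cells, had log2 ratios of -3.22, -3.43, -3.52 and -1.56 in pairs 1 to 4. Its limma adjusted p with the random block was 0.000795. The Y-linked markers did not run together: DDX3Y averaged 0.23 and EIF1AY 0.31, while ZFY averaged -0.13 and was below 0 in each pair. None was above background on all arrays. DDX3Y was above it on 7 Holstein and 4 Jersey arrays, EIF1AY on 5 and 3, and ZFY on 5 and 6. EIF1AY was thus kept through Holstein alone, the breed in which it is higher. Pair 4 stood apart: across 32033 probes its ratios correlated with those of the other pairs at 0.13 to 0.15, against 0.34 to 0.41 among those 3, and 1 of its arrays (array 7) had 41.9% of probes above background in Cy5 and 42.9% in Cy3, the other arrays 47.6% to 63.2% and 69.4% to 80.9%. Each member's mean is therefore given without pair 4 as well.

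TET3 had the lowest mean log2(Holstein / Jersey) of the 9 genes, -0.55, and 7 of the 9 had a mean below 0, on the Jersey side. By the brightest kept probe of each gene the 7 were DNMT1, DNMT3B, TET2, TET3, UHRF1, DPPA3 and TRIM28. DNMT3A and ZFP57 were above 0. The probes of TET2 and those of DNMT3A differ in sign, so the side on which these genes are counted depends on the probe. The median over the 9 genes was -0.26, while over all 12351 named genes it was 0.01 and 47.3% were below 0. None of the 14 probes passed the adjusted threshold, as 0 of 32139 probes (0%) did in the limma fit on pair means. Unadjusted p-values under 0.05 were reached by 3 of the 9 genes, against 15.9% of named genes. TET3 and TRIM28 were the 2 in the direction of Jersey, where the share over named genes was 7.41%, and ZFP57 was the 1 toward Holstein, where it was 8.45%. The ZFP57 probe was kept only through Holstein, the breed in which it is higher, so its place in the count is not read against that share. The members were chosen by name with earlier results of these data known, so these counts describe the list.

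**Figure D1:**
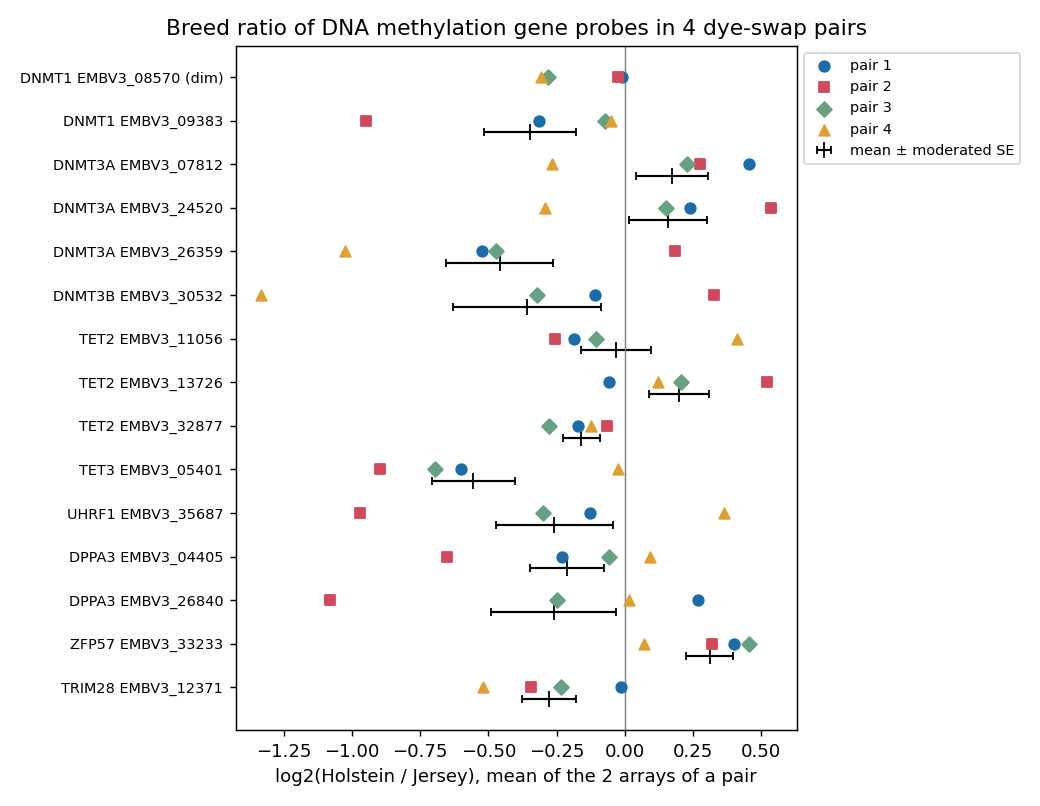
Log2(Holstein / Jersey) of 15 probes (rows) in each of 4 dye-swap pairs (symbols), with the mean and its moderated SE as a black bar for the 14 kept probes. TET3 lies below 0 in all pairs but is at -0.02 in pair 4, ZFP57 lies above 0 in all pairs, and DNMT3B spans 0.33 to -1.33.

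Among the writers, DNMT1 (chromosome 7), the maintenance methyltransferase, was measured by probe EMBV3_09383. Its log2 ratios were -0.31, -0.95, -0.07 and -0.05 in pairs 1 to 4. Pair 2 was lowest and pairs 3 and 4 lay near 0, all on the Jersey side. The mean was -0.35 ± 0.17 (SE, n = 4 pairs; limma adjusted p = 0.453), or -0.15 without pair 2 and -0.44 without pair 4. In pair 2 the log2 level in Holstein was 7.25, below its 7.50 to 7.77 in the other pairs, and that in Jersey was 8.20, above its 7.55 to 7.97. Its foreground was only 0.878 to 1.56 times the background threshold in Holstein and 1.06 to 1.96 times in Jersey. The second DNMT1 probe, EMBV3_08570, was above background on 0 of 8 arrays for either breed, so no fold is given for it. On the arrays its ratio was above 0 wherever Holstein was in Cy5 (0.09 to 0.35) and below 0 wherever Jersey was (-0.92 to -0.11).

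UHRF1 (chromosome 7), which brings DNMT1 to hemimethylated DNA, had log2 ratios of -0.13, -0.97, -0.30 and 0.36 in pairs 1 to 4 on probe EMBV3_35687. Pair 2 was low and pair 4 lay on the Holstein side. The mean was -0.26 ± 0.22 (SE, n = 4 pairs; limma adjusted p = 0.69), or -0.02 without pair 2 and -0.46 without pair 4. In pair 2 the Jersey level stood out, at 8.80 against 7.82 to 8.12 in the other pairs, while Holstein lay between 7.75 and 8.19 throughout. Its foreground was 1.23 to 1.73 times the threshold in Holstein and 1.1 to 2.45 times in Jersey.

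DNMT3A (chromosome 11), a de novo methyltransferase, had 3 kept probes that did not run together. EMBV3_24520, far above background (86.2 to 229 times the threshold) and saturated on 0 arrays, had ratios of 0.24, 0.54, 0.15 and -0.29 in pairs 1 to 4. EMBV3_07812, close to background at 0.965 to 2.8 times the threshold, was at 0.46, 0.28, 0.23 and -0.27. Both were higher in Holstein in pairs 1 to 3 and higher in Jersey in pair 4. EMBV3_26359, at 2.76 to 7.62 times the threshold, had ratios of -0.52, 0.18, -0.47 and -1.02, higher in Jersey in each pair except pair 2. The means were 0.16 ± 0.14, 0.17 ± 0.13 and -0.46 ± 0.20 (SE, n = 4 pairs), with limma adjusted p of 0.714, 0.652 and 0.394. Without pair 4 they were 0.31, 0.32 and -0.27, about as far apart. All 3 probes had their lowest ratio in pair 4. Which transcripts each probe reads is not given in the sources used here. The probes differ in sign, and their mean was -0.04, so no direction is given for DNMT3A as a gene.

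DNMT3B (chromosome 13), the other de novo enzyme, had the widest spread over pairs of the 14 probes, an SD of 0.70. Probe EMBV3_30532 was at -0.11, 0.33, -0.32 and -1.33 in pairs 1 to 4. The mean of -0.36 ± 0.27 (SE, n = 4 pairs; limma adjusted p = 0.652) thus rested on pair 4, without which it was -0.03. The log2 level in Jersey was even, at 10.71, 10.59, 10.28 and 10.31. In Holstein it was 10.60, 10.91, 9.96 and 8.98, so the low ratio of pair 4 went with a low Holstein level. Single arrays ran from -1.84 to -0.20 where Cy5 marked Holstein and from -0.82 to 0.88 where it marked Jersey (dye effect -0.48 ± 0.22, SE, n = 8 arrays; limma adjusted p = 0.161).

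**Figure D2:**
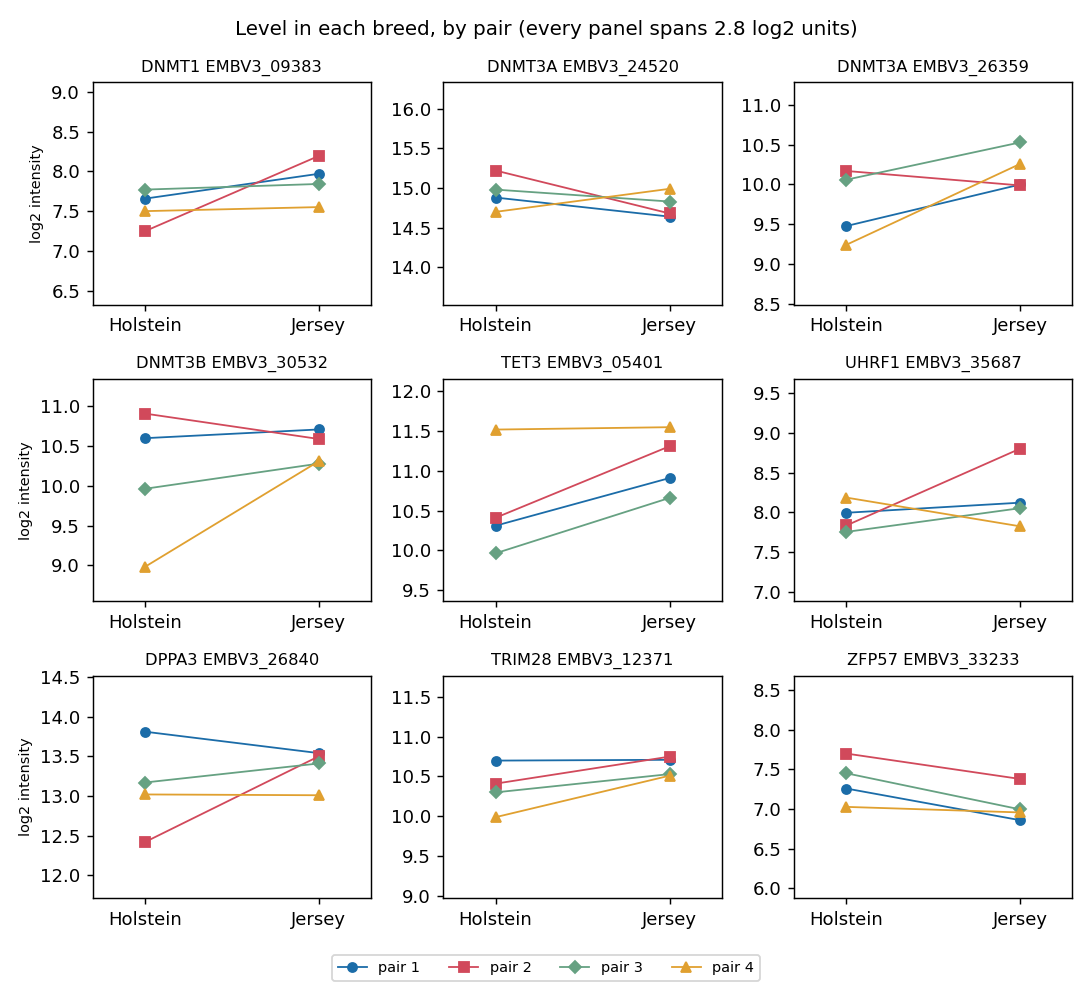
Log2 intensity of 9 probes (panels) in Holstein and Jersey, each line joining the breeds within 1 dye-swap pair, after loess and quantile scaling of mean intensity between arrays. In pair 4 the Holstein level is low for DNMT3B (8.98) and high for TET3 (11.52); in Jersey DNMT3B is even over pairs (10.28 to 10.71) and TET3 is also highest in pair 4 (11.55). Levels of different probes cannot be set against each other.

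Among the erasers, TET3 (chromosome 11), the TET enzyme of the egg and zygote in the mouse, had the largest mean difference of the members. Probe EMBV3_05401 was at -0.60, -0.90, -0.70 and -0.02 in pairs 1 to 4. Pairs 1 to 3 were higher in Jersey, and in pair 4 the breeds were level. The mean of -0.55 ± 0.15 (SE, n = 4 pairs; 95% interval -0.94 to -0.17) is 1.47-fold higher in Jersey, with 7 of 8 arrays below 0 and the other level. The limma adjusted p was 0.225. With the pair as a random block over 8 arrays the adjusted p was 0.0504, and with no block it was 0.0329, a fit in which 6.38% of all probes passed. That last fit takes the 2 arrays of a pair as separate replicates, so it overstates the evidence. Without pair 4 the mean was -0.73.

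By breed, the log2 level of TET3 was 10.31, 10.41, 9.96 and 11.52 in Holstein and 10.91, 11.31, 10.66 and 11.55 in Jersey. The ranges overlap, since the Holstein sample of pair 4 lay above 3 of the 4 Jersey samples. The dye effect was -0.01 ± 0.125 (SE, n = 8 arrays). Its foreground was 5.51 to 16 times the threshold in Holstein and 7.24 to 11.9 times in Jersey, well clear of background.

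TET2 (chromosome 6) lay close to the background, and its 3 kept probes disagreed. EMBV3_32877 had ratios of -0.17, -0.07, -0.28 and -0.12, higher in Jersey in 4 of 4 pairs, with a mean of -0.16 ± 0.07 (SE, n = 4 pairs; limma adjusted p = 0.396). EMBV3_13726 averaged 0.20 ± 0.11 and EMBV3_11056 averaged -0.03 ± 0.13. Without pair 4 the 3 means were -0.17, 0.22 and -0.18. Holstein was above background on 2 to 4 arrays and Jersey on 3 to 6, depending on the probe. The foreground of all 3 probes stayed between 0.718 and 1.27 times the threshold, within reach of the floor, and no direction is given for TET2 as a gene.

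Among the guardians, DPPA3 (chromosome 5) had 2 kept probes. The brighter, EMBV3_26840, at 21.9 to 81.1 times the threshold, had ratios of 0.27, -1.08, -0.25 and 0.02. EMBV3_04405 had -0.23, -0.65, -0.06 and 0.09. Pair 2 was the lowest on both, and on the brighter probe the pairs split evenly between the breeds. Means were -0.26 ± 0.23 and -0.21 ± 0.13 (SE, n = 4 pairs), with limma adjusted p of 0.708 and 0.579. The second probe lay near background, at 1.09 to 2.2 times the threshold. Without pair 2 the means were 0.01 and -0.06, and without pair 4 they were -0.35 and -0.31. On the brighter probe the Holstein level of pair 2 was 12.42, against 13.02 to 13.81 in the other pairs, and Jersey ran from 13.01 to 13.54.

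ZFP57 (chromosome 23), the reader of methylated imprinted regions, was the only gene of the 9 above 0 in 4 of 4 pairs. Its ratios on probe EMBV3_33233 were 0.40, 0.32, 0.45 and 0.07. All lay on the Holstein side, pair 4 close to 0. The mean was 0.31 ± 0.09 (SE, n = 4 pairs; limma adjusted p = 0.23), and 0.39 without pair 4. On 7 of 8 arrays it was above 0. Holstein was above background on 6 arrays and Jersey on 3, with foregrounds of 0.687 to 1.41 and 0.792 to 1.14 times the threshold, so both breeds lay near the floor that bounds the ratio. The probe was kept through Holstein alone.

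TRIM28 (chromosome 18), the corepressor that ZFP57 recruits, went the other way. On probe EMBV3_12371 its ratios were -0.01, -0.34, -0.23 and -0.52. Pair 1 was at 0 and the others on the Jersey side, and 7 of 8 arrays lay below 0. The mean was -0.28 ± 0.10 (SE, n = 4 pairs; 95% interval -0.53 to -0.03; limma adjusted p = 0.323), which is 1.21-fold higher in Jersey, and -0.20 without pair 4. Log2 levels were 10.70, 10.41, 10.30 and 9.99 in Holstein and 10.71, 10.75, 10.53 and 10.51 in Jersey, with foregrounds at least 4.02 times the threshold. The breeds overlapped in level.

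Pairs differed in which genes had the lowest ratios. In pair 2 the lowest ratios were those of DPPA3 (-1.08), UHRF1 (-0.97), DNMT1 (-0.95) and TET3 (-0.90), while DNMT3A and DNMT3B were at 0.18 to 0.54. In pair 4 the order turned: DNMT3B (-1.33), the 3 DNMT3A probes (-1.02 to -0.27) and TRIM28 (-0.52) were its lowest, and UHRF1, DPPA3 and DNMT1 lay between -0.05 and 0.36. This contrast was noticed in the values and was not tested. Spread over the 4 pairs was larger in Holstein than in Jersey for 12 of 14 member probes, against 55.6% of all kept probes, with DNMT3B at an SD of 0.85 against 0.21. Pairs 1 and 2 were on 1 slide and pairs 3 and 4 on the other. The slide means were -0.75 and -0.36 for TET3, 0.36 and 0.26 for ZFP57 and -0.18 and -0.38 for TRIM28, each with 1 sign on both slides. For DNMT3B they were 0.11 and -0.83, and for UHRF1 -0.55 and 0.03. Between slides 0 of the 14 probes passed the adjusted threshold (0% of all probes). At an unadjusted p under 0.05, 0 of the 14 and 1310 of 32139 probes in all did, a share so small that 0 of 14 says little.

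**Figure D3:**
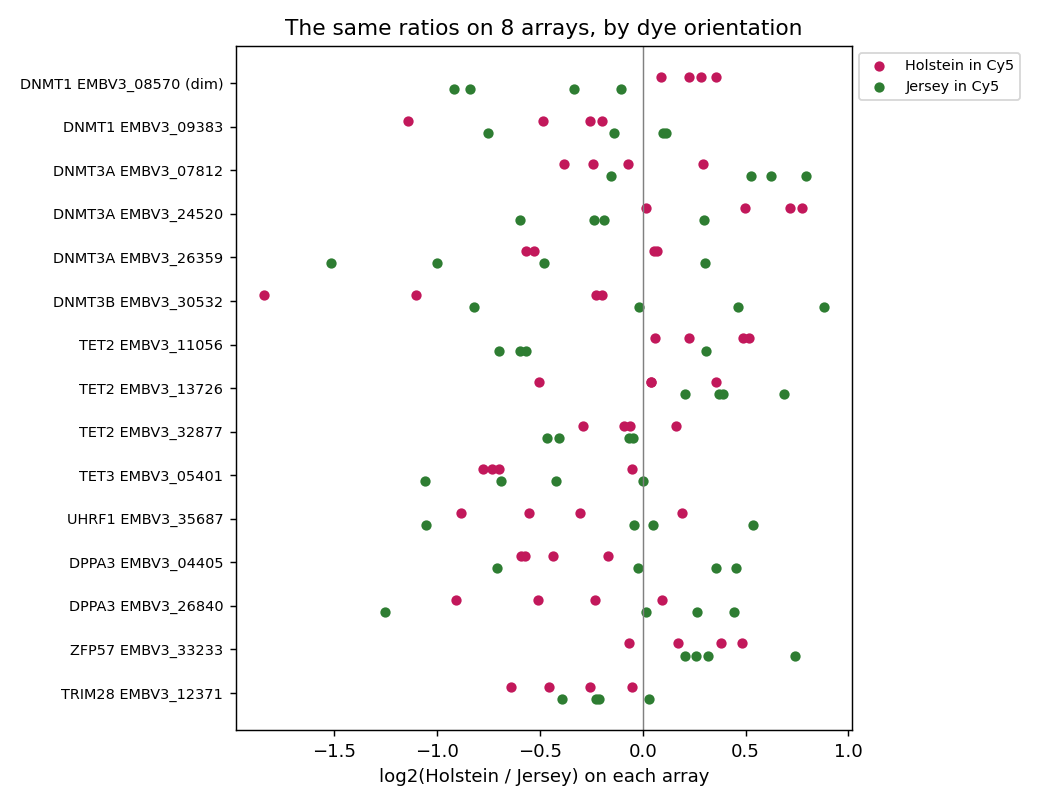
Log2(Holstein / Jersey) of the 15 probes on each of 8 arrays, coloured by the breed labelled with Cy5. TET3 and TRIM28 overlap between orientations, whereas the dim DNMT1 probe lies above 0 wherever Cy5 marks Holstein and below 0 wherever it marks Jersey.

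Ratios were also compared between dye orientations. None of the 14 passed the adjusted threshold for a dye effect, while 16.8% of all probes did. At an unadjusted p under 0.05, 3 of the 14 did, as did at least that 16.8% of all probes. The exact share at that threshold was not computed, so the count is not read as a result. The 3 were DNMT3A EMBV3_24520 (0.34 ± 0.11, SE, n = 8 arrays; limma adjusted p = 0.0696), TET2 EMBV3_11056 (0.36 ± 0.12; limma adjusted p = 0.0644) and DNMT3A EMBV3_07812 (-0.27 ± 0.11; limma adjusted p = 0.13). The DNMT3A probes leaned to opposite dyes, and averaging a pair cancels either lean.

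Other genes of the pathway were taken from 6 lists of 105 genes, of which 82 were measured. Their median log2 ratio was -0.006, beside 0.01 over all named genes, with 38 genes above 0 and 44 below. On pair means none passed the adjusted threshold (0%), and 11 of the 82 had an unadjusted p under 0.05, against 15.9% of named genes, so the share in the lists was not above that over named genes. With the pair as a random block 3 passed, against 4.47% of named genes: CBX1, GNMT and ATRX. All 3 were higher in Jersey. ATRX was named after its value was seen.

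Of 12 measured partners of maintenance methylation 9 were higher in Jersey (median -0.05). The median turned to 0.08 and the count to 4 when arrays were centred on the median in place of loess. DMAP1, which binds DNMT1, was at -0.18 ± 0.09 and the acetyltransferase KAT5 at -0.19 ± 0.10 (SE, n = 4 pairs), and no gene of the list had an unadjusted p under 0.05. Of 12 partners of de novo methylation 7 were higher in Jersey (median -0.04), or 4 with median centring, again with none under 0.05. The tRNA methyltransferase TRDMT1, a relative of the DNMT family, stood at -0.15 ± 0.10 and MPHOSPH8, a reader of histone H3 methylation, at -0.09 ± 0.09. Without pair 3 they were -0.06 and -0.06, and MPHOSPH8 was -0.05 without pair 1 and -0.17 without pair 2.

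Of 21 demethylation partners 13 were higher in Holstein (median 0.03). IDH3A, a citrate cycle enzyme that supplies the TET cosubstrate 2-oxoglutarate, was at 0.41 ± 0.12 (limma adjusted p = 0.253), above 0 on 7 of 8 arrays. The stress-induced GADD45A stood at -0.61 ± 0.24 (limma adjusted p = 0.354), and its second probe at -0.03. Its ratios were -1.48, -0.45, -0.48 and -0.04, and without pair 1, the lowest, the mean was -0.32. TDG, the glycosylase that removes TET products, named after its value was seen, had ratios of 1.18, 0.30, 0.82 and -0.33 on its brightest probe, while its other 3 probes averaged between -0.30 and 0.14. The mean of the brightest, 0.49, was 0.26 without pair 1 and 0.76 without pair 4.

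Of 11 methyl-CpG readers 6 were higher in Jersey (median -0.001). The 2 of smallest p are X-linked: ZBTB33 (Kaiso), which binds methylated DNA, at -0.48 ± 0.16 (limma adjusted p = 0.28; second probe 0.05), and RBBP7, a histone-binding subunit of repressor complexes, at -0.42 ± 0.18 (limma adjusted p = 0.388). RBBP7 had ratios of -0.48, -0.77, -0.65 and 0.22 in pairs 1 to 4, on the Holstein side in pair 4, without which its mean was -0.63. XIST was below 0 in each pair, pair 4 included, and its part in these values was not tested.

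Of 19 imprint guardians and TRIM28 partners 9 were higher in Jersey (median 0.03). CBX1, a heterochromatin protein 1 family member that TRIM28 binds, had ratios of -0.58, -1.36, -1.43 and -0.97. All 4 pairs and 8 of 8 arrays were on the Jersey side, the mean being -1.09 ± 0.16 (SE, n = 4 pairs; limma adjusted p = 0.114, and 0.00374 with the random block). X-linked ATRX, a chromatin remodeller found at imprinted regions in the mouse, was at -0.78 ± 0.20 (limma adjusted p = 0.213, and 0.0427 with the random block). Its other 3 probes ran from -0.35 to -0.03. RLIM, also X-linked and named after its value was seen, was higher in Holstein in each pair, at 0.44 ± 0.17 (limma adjusted p = 0.352). ARID4B, of a histone deacetylase complex, was at 0.44 ± 0.09 (limma adjusted p = 0.163), though only 4 of 8 arrays were above 0.

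Of 9 genes of methyl donor supply 6 were higher in Jersey. Their median of -0.12 turned to 0.03 with median centring and also without pair 2. GNMT, which consumes S-adenosylmethionine by methylating glycine, was at -0.84, -0.46, -0.93 and -0.19. Each pair was higher in Jersey, as was its second probe (-0.84), and the mean was -0.60 ± 0.14 (SE, n = 4 pairs; limma adjusted p = 0.193, and 0.0243 with the random block). MAT2A, which makes S-adenosylmethionine, was at -0.36 ± 0.08 (limma adjusted p = 0.182), below 0 on 8 of 8 arrays, with its other 3 probes from -0.20 to -0.01.

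**Figure D4:**
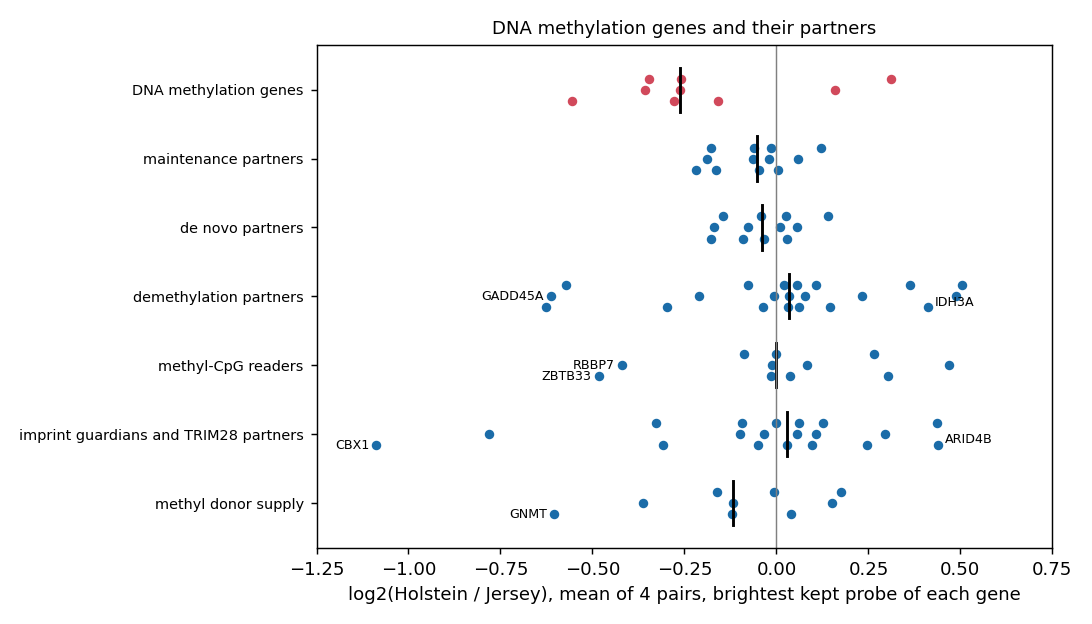
Mean log2(Holstein / Jersey) over 4 pairs of the brightest kept probe of each gene, for the 9 DNA methylation genes (red) and 6 lists of partner genes (blue), with each list's median as a black bar. The 9 genes have a median of -0.26, the lists medians of -0.12 to 0.03, and CBX1 lies lowest at -1.09.

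For the 3 members of smallest p, the genes with the nearest values on the 8 arrays were found by the root mean square difference of their log2 ratios, among 11631 other named genes. LDAF1 (0.0738) and SPTSSB (0.149) were nearest to TET3, where the median gene differed by 0.746. GPSM1 (0.0741) and IWS1 (0.111) were nearest to ZFP57, against a median of 0.524. MRI1 (0.119) and HJURP (0.127) were nearest to TRIM28, against 0.514. These are the smallest of many differences and describe only these arrays.

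**Figure D5:**
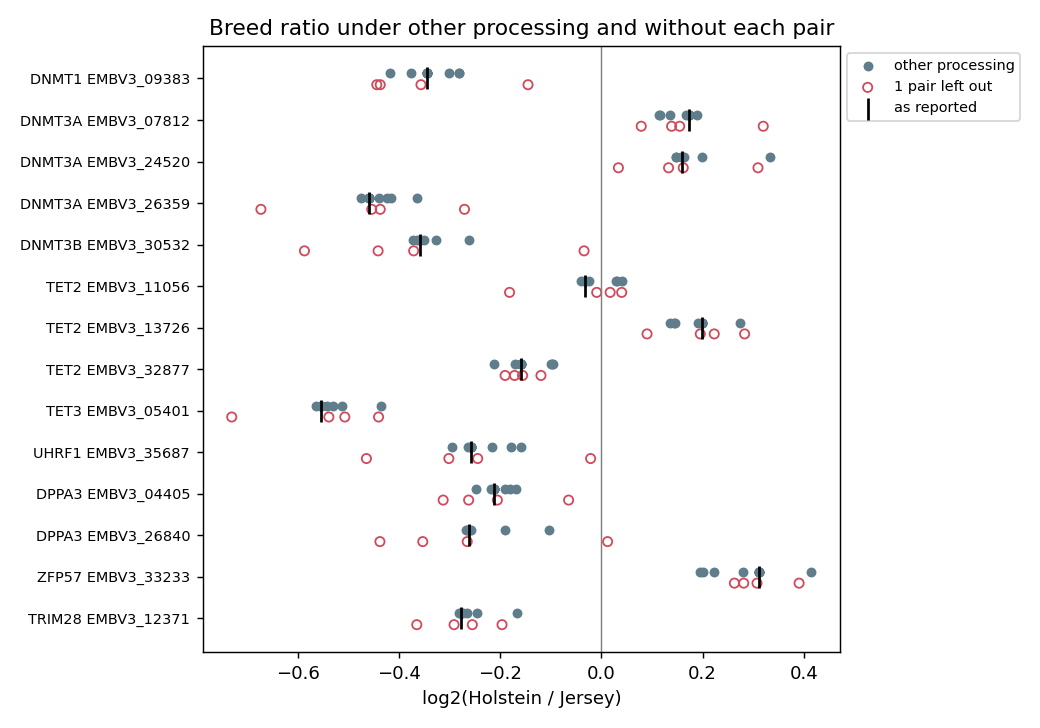
Log2(Holstein / Jersey) of the 14 kept probes as reported (black bar), under other background correction, normalization, filters, fits and the deposited values (grey), and with each pair left out (open red circles). TET3 stays between -0.73 and -0.44 and TRIM28 between -0.37 and -0.17, while the open circles of DNMT3B reach -0.03 and those of DPPA3 EMBV3_26840 cross 0.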

How the data were processed

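The authors deposited a raw intensity per spot in Cy3 and in Cy5, with local background, per the file headers, and a table of a log2 ratio per probe, whose steps are not given in the sources used here. That table correlated with log2(Holstein / Jersey) at -0.983 to -0.97, so it is Jersey over Holstein, and served as an alternative. Its column medians lay between -0.0364 and 0.0251.

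Background correction of the mean foreground used limma 3.58.1 (R 4.3.3), by normexp with an offset of 50, followed by loess within arrays. Controls had no weight in the loess, and 131 spots marked to be ignored were left out. Levels were also scaled by Aquantile. The labels do not name the dye-swap pairs. Of 24 matchings the one with the highest residual correlations (0.46 to 0.71, others -0.36 to -0.019) was taken, which pairs neighbouring arrays and was picked for that sum. The 4 pair means were tested against 0 with limma and Benjamini-Hochberg adjustment over 32139 probes at 0.05. The random block had a correlation of 0.31. The slide difference used pair means and the dye effect 8 arrays. Symbols came from the array annotation: 20068 of 21790 matched RefSeq (ARS-UCD2.0) directly and 1644 by synonym, and the assembly served for names and chromosomes. The fit was tested on simulated data.

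Members and lists were chosen with earlier results of these data known. All member probes are named, the 2 genes of smallest p of each list, and the 2 nearest genes of 3 members. The number of arrays limits the precision.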

Additional observations from a re-analysis of the deposited data

How the results depend on the processing

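Over all probes, 0 passed on pair means (4483 at an unadjusted p under 0.05). The count was 48 among probes above background in both breeds on all 8 arrays, 1209 with the random block for the pair (replicate block), 2049 over 8 arrays with no block, and 0 to 2 without 1 pair. Of the members, TET3 alone passed in any of these, over 8 arrays with no block (-0.55, adjusted p = 0.0329), and its adjusted p otherwise ran up to 0.446 in the alternatives that kept all pairs. The count of genes with an unadjusted p under 0.05 was 1 among probes above background throughout, where 6 of the 9 genes remain to be tested, and 0 to 3 without 1 pair (0 without pair 3, 1 without pair 1). That count was 2 with median centring, 4 with the random block and 4 over 8 arrays with no block. The number higher in Jersey stayed at 7 in each alternative except 5 of 6 with that filter and 6 without pair 2. TET2 EMBV3_11056 turned to 0.0296 with no background correction, 0.041 with plain subtraction and 0.0318 in the deposited table, and ran from -0.182 to 0.0401 without 1 pair. DPPA3 EMBV3_26840 ran from -0.438 to 0.0123. Averaging all kept probes gave -0.0421 for DNMT3A and 0.0018 for TET2, so DNMT3A took the place of TET2 among the 7 higher in Jersey. Median centring moved the list medians of maintenance partners to 0.0776 and of methyl donor supply to 0.0279, the latter running from -0.16 to 0.0279 without 1 pair; the cause was not tested. Plain subtraction was run over all 32139 kept probes, but its ratios are given for the member probes alone. The replicate block changed no call on a member against the pair means. Against the 8 arrays with no block it took away that of TET3 (limma adjusted p = 0.0504). Signal close to background limits TET2, ZFP57, DNMT1 and UHRF1, and the probes EMBV3_07812 of DNMT3A and EMBV3_04405 of DPPA3.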

Other observations

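Several lineage genes, chosen after their values were seen, differed widely between pairs. TFAP2A, a trophectoderm factor, had log2(Holstein / Jersey) of 1.57, 3.02, 1.95 and -2.56 in pairs 1 to 4, and its mean of 0.995 had a limma adjusted p of 0.73. HNF4A, an endoderm factor, was at 0.29, -1.68, 0.35 and -2.47, so pairs 2 and 4 were low and pairs 1 and 3 on the Holstein side. NANOG, the pluripotency factor, was also lower in pairs 2 and 4, at 1.98 and 2.12 in pairs 1 and 3 and -1.58 and -0.92 in pairs 2 and 4. PDGFRA, an early endoderm marker, was higher in Holstein in each pair (0.60 to 1.06). Its limma adjusted p was 0.0907 on pair means and 0.0112 with the random block. GATA4 of the same list was also higher in Holstein in each pair (0.35 to 0.82), with limma adjusted p of 0.164 and 0.0332. SOX17 had both signs, with a mean of -0.03.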
